A study of Mus musculus with 2 samples.

Results

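The genes described here encode the proteins of the cornified envelope, among them the late cornified envelope (Lce) family, loricrin, involucrin, filaggrin and its relatives. Members were taken by the gene name or description of each array probe. These were every Lce gene, Lor, Ivl, Flg, Flg2, Hrnr, Rptn, Crnn, Crct1, Cdsn, Casp14, Tgm1, Tgm3 and Tgm5, and any probe whose description names filaggrin. The rule found 40 probes for 32 genes among the 55681 non-control probes of the array, of which 55676 were measured on both arrays and tested. All 40 member probes were tested, and the main test used no filter on dim probes. Each probe is 60 bases long. A probe of one further gene, Lce1j, carries only an Ensembl transcript as its name and was not taken by the rule. Its log2 ratios were 0.66 and 0.29.

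The experiment asked how epidermal gene expression changes when the transcription factor SOX11 is switched on in postnatal skin. Epidermis of K14-rtTA;TRE-Sox11-FLAG mice was compared with that of K14-rtTA littermates on 2 arrays, and each array held 1 littermate pair as a biological replicate. All mice were of the FVB/N strain, were labelled as age P4.5 (4.5 days after birth), and had received doxycycline (Dox) for 12 h, so the control mice shared the rtTA transgene and the drug. The keratin 14 promoter drives rtTA in basal keratinocytes and in the outer root sheath of the hair follicle, and Dox turns on the tagged Sox11 transgene in those cells. Dispase loosened the epidermis of the back skin, and whole epidermal sheets of sex-matched littermates were lysed without a cell sort. Control RNA was labelled with Cy3 and SOX11 RNA with Cy5 on both arrays, so a dye effect that is particular to one probe and the effect of the transgene cannot be told apart. Both probes for Sox11 itself were not well above background in any channel (log2 ratios of 0.10 and -0.35 for one, -0.39 and -0.05 for the other), so they gave no check of the labels. The files used here do not say whether these probes lie in the part of the gene that the transgene carries.

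The cornified envelope is the protein shell that replaces the plasma membrane of a keratinocyte as it dies at the skin surface. Keratinocytes of the spinous and lower granular layers first lay down a scaffold of involucrin, which transglutaminases crosslink beneath the membrane. Loricrin, small proline-rich proteins and the Lce proteins are added later, in the upper granular layer, and filaggrin bundles the keratin filaments inside the cell. Most of these genes sit side by side in the epidermal differentiation complex. On the array's own positions, given in the mouse build mm9, 34 of the 40 member probes lay on chromosome 3 within 1319 kb. The other genes were Tgm3 and Tgm5 on chromosome 2, Casp14 on chromosome 10, Tgm1 on chromosome 14 and Cdsn on chromosome 17.

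Because the Lce genes are recent duplicates, several probes are close copies of each other, which bears on how many separate measurements the Lce3 values hold. The probes of Lce3b and Lce3c, both 60 bases, were aligned without gaps and were identical at 54 positions. The Lce3d probe overlapped each by 41 bases, 37 of them identical to Lce3b and 38 to Lce3c. A 30-base stretch that all 3 probes cover is shown from the array's probe sequences, 5′ to 3′, with capitals where a base differs from the Lce3c probe.
Lce3b: tcttgttttGtctgatcctggaCaCCcttc
Lce3c: tcttgttttatctgatcctggagagtcttc
Lce3d: tcttgttttGtctgatcctggagaACcttc
The probes of Lce3a, Lce3e and Lce3f shared no run of 15 bases or more with these or with each other. Among the Lce1 genes the closest pair was Lce1h and a probe of Lce1i, with 56 of 60 bases identical, shown with capitals where Lce1i differs from Lce1h.
Lce1h: aagacttcaaacaaatggtgcaggaggagc
Lce1i: aagacttcaGacaaatAgtgcaggaggagc
The array's own annotation lists Lce1e and Lce1f beside Lce1c for one probe, and Lce1a1 beside Lce1a2 for another. Whether RNA of one copy also bound the probe of another was not tested, and values of such neighbours are not independent.

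Cornified envelope genes had a median ratio above that of all probes in both pairs, and 5 of the 32 genes passed the test. The median log2 ratio of the 40 probes (SOX11 over control, so that 1 is a doubling) was 0.36 in pair 1 and 0.24 in pair 2. Over all tested probes it was 0.01 in both pairs, and over the 21782 probes above background it was 0.04 and 0.03. Above background here means that Agilent's own call for the spot, "well above background", was positive for the Cy3 or the Cy5 signal of each array. Of the member probes, 30 were higher in both pairs, 4 were lower in both and the remaining 6 had opposite signs. Of all tested probes 33.4% were higher in both pairs, and of those above background 41.0%. In 27 of the 40 the ratio was higher in pair 1 than in pair 2.

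Past an adjusted p of 0.05 (limma, Benjamini-Hochberg over all tested probes), 5 member probes rose and none fell. They were Rptn, Lce3b, Lce3c, Lce3d and Lce3e. Among all tested probes, 2.99% rose and 1.41% fell, and among the probes above background, 6.78% rose and 3.21% fell. At an unadjusted p under 0.05 in limma, 19 member probes passed, 18 of them higher, against 21.1% of all tested probes and 31.2% of those above background in either direction. The added requirement of a log2 ratio past 1.5, which 0.453% of all probes met in either direction, left no member. The limma p-values lean on the spread of all probes because each has only 2 ratios, and an exact sign-flip test over 2 arrays cannot go below 0.5. In bulk RNA, a change in the number of cells of a type and a change in the RNA per cell cannot be told apart.

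**Figure D1:**
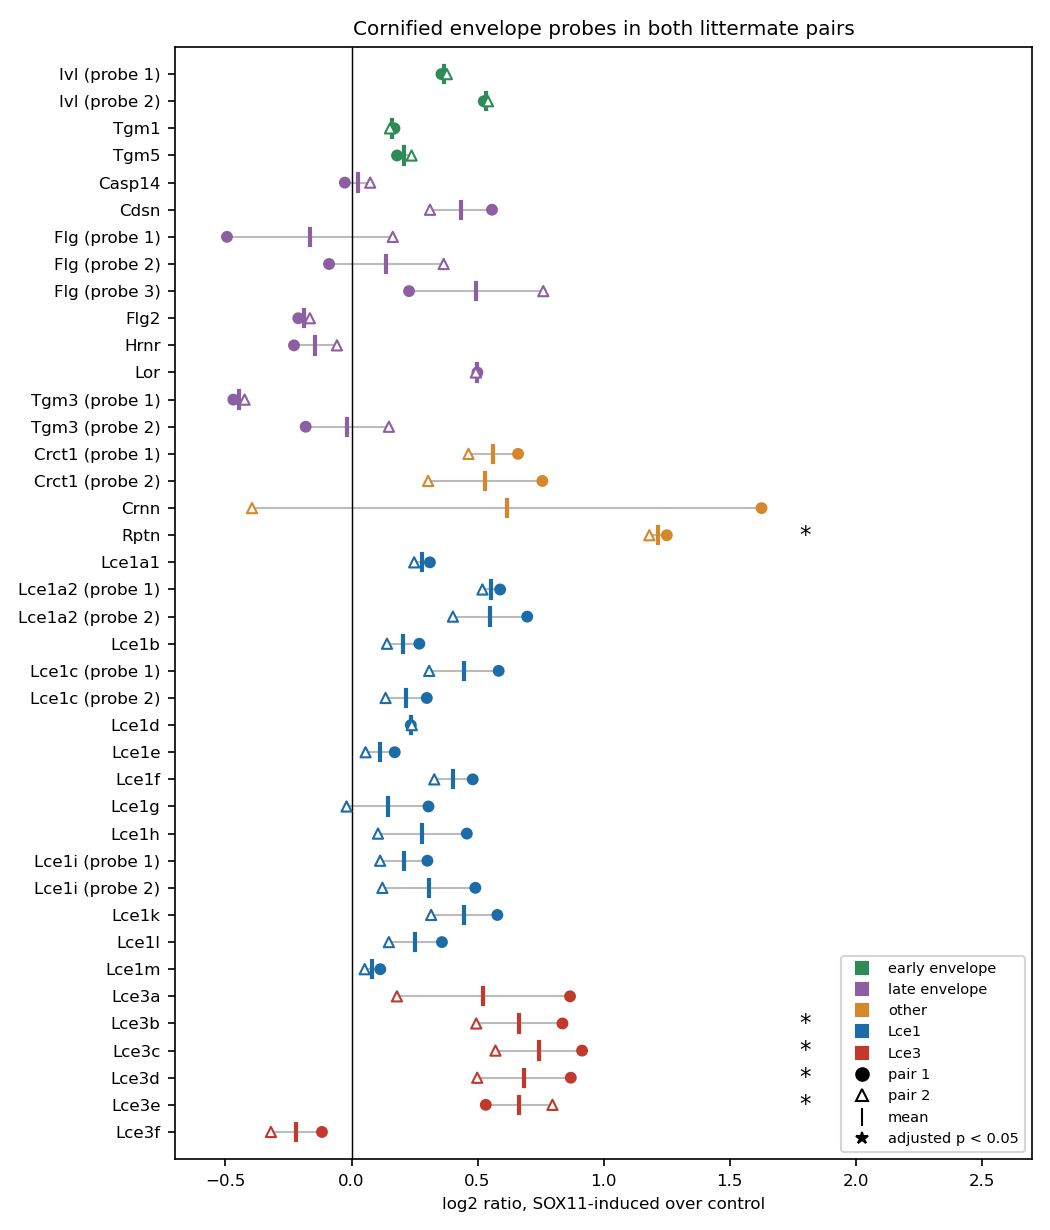
Log2 ratio of SOX11-induced over control epidermis (horizontal axis) for each of the 40 member probes, with filled circles for pair 1, open triangles for pair 2, a vertical bar at the mean and an asterisk where the adjusted p was under 0.05. Probes of 1 gene are numbered by position. Rptn sits at 1.25 and 1.18, Lce3b to Lce3e have means above those of all Lce1 probes, and the late envelope genes lie on both sides of 0.

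The early scaffold genes were all a little above 0 in both pairs, and none passed the test in the main analysis. Ivl encodes involucrin, the first scaffold protein, and its probe at chr3:92375498-92375557 read 0.52 in pair 1 and 0.54 in pair 2 (mean 0.53 ± 0.012, SD, n = 2; limma adjusted p = 0.0809). The second Ivl probe, at chr3:92375367-92375426, read 0.36 and 0.38 (limma adjusted p = 0.199). The 2 Ivl probes therefore differed more from each other than either did between pairs. Under other settings the probe at 92375498 passed as higher. Its limma adjusted p was 0.00943 at a background offset of 50, 0.0115 with no background subtraction and 0.00715 when the prior spread followed brightness. It was 0.0491 when only probes above background were tested and 0.000434 with median centring. The other Ivl probe passed at that offset (0.0394), with that prior spread (0.0433) and with median centring (0.00089). Tgm1 encodes the membrane-bound transglutaminase that crosslinks the scaffold. Its ratios were 0.17 and 0.15 (limma adjusted p = 0.580). Tgm5, a transglutaminase of the same layers, gave 0.18 and 0.24 (limma adjusted p = 0.461).

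The late genes did not move as one group. Lor encodes loricrin, the most abundant envelope protein, and its log2 ratios were 0.50 in pair 1 and 0.49 in pair 2 (mean 0.50 ± 0.0044, SD, n = 2). Its limma adjusted p was 0.0986. Both the call and the value depended on the processing. The adjusted p was 0.0176 at a background offset of 50, 0.0137 with no background subtraction and 0.000348 when the prior spread followed brightness. The mean ratio was 0.27 (adjusted p = 0.270) with the scanner software's processed signals. With median centring in place of loess, which raised bright probes in general, the mean ratio was 1.38 (limma adjusted p = 0.000204). Cdsn, which encodes the adhesion protein corneodesmosin, read 0.56 and 0.31 (limma adjusted p = 0.151). It passed at that offset (0.0413), with no background subtraction (0.0342), with that prior spread (0.00421) and with median centring (0.00032).

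The ratios of Flg2, Hrnr and Casp14 were near 0 or below it. Flg2, which encodes a filaggrin-like protein, read -0.21 and -0.17 (limma adjusted p = 0.512). Hrnr, which encodes the filaggrin-like protein hornerin, read -0.23 and -0.06 (limma adjusted p = 0.636). Casp14, the protease that degrades filaggrin in the cornified layer, read -0.03 and 0.07 (limma adjusted p = 0.948).

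The 3 Flg probes gave different answers in the same RNA. They lie on the plus strand of chromosome 3 at 93083694-93083753, 93096241-93096300 and 93097529-93097588. In pair 1 their log2 ratios were -0.49, -0.09 and 0.23 in that order, and in pair 2 they were 0.16, 0.37 and 0.76. The order was the same on both arrays, and from the first to the last probe the ratio differed by 0.72 in pair 1 and 0.60 in pair 2. Between the pairs each probe differed by 0.46 to 0.66. In normalized log2 brightness, the SOX11 channel of the first probe read 16.5 on both arrays, whereas the control channel read 17.0 in pair 1 and 16.3 in pair 2. None of the 3 passed the test (limma adjusted p = 0.652, 0.680 and 0.145). The third passed as higher with no background subtraction (0.0443), with a prior spread that followed brightness (0.00843) and with median centring (0.000559). The exon that each probe reads was not determined here, since no mm9 annotation was used.

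Tgm3, the transglutaminase that acts late in the envelope and in the hair follicle, also had probes that disagreed. The probe at chr2:129874069-129874128 read -0.47 and -0.42 (mean -0.45 ± 0.032, SD, n = 2; limma adjusted p = 0.130), the lowest mean of any member. The second, at chr2:129876035-129876094, read -0.18 and 0.15 (limma adjusted p = 0.966). With a background offset of 50 or with no background subtraction, the first probe passed as lower, with adjusted p-values of 0.0409 and 0.0304, and with median centring its mean was 0.06 (0.778).

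Early and late genes were set against each other as the median over genes on each array, with the probes of 1 gene averaged first. The 7 late genes (Lor, Flg, Flg2, Hrnr, Casp14, Cdsn and Tgm3) had medians of -0.12 in pair 1 and 0.07 in pair 2. The 3 early genes (Ivl, Tgm1 and Tgm5) had medians of 0.18 and 0.24. The late median was thus lower by 0.30 in pair 1 and by 0.16 in pair 2 (late minus early -0.23 ± 0.095, SD, n = 2). The ranges overlapped in both pairs, since the late genes ran from -0.33 to 0.56 in pair 1 and from -0.17 to 0.49 in pair 2, and the early genes from 0.17 to 0.44 and from 0.15 to 0.46. When the 13 Lce1 genes, which are also late, were added to the late list, the difference became 0.13 in pair 1 and -0.09 in pair 2. No order of early and late genes therefore held for every definition of late.

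The Lce1 genes, the main late cornified envelope genes of healthy epidermis, were slightly above 0. Of their 16 probes, 15 were higher in both pairs, against 41.0% of all probes above background, and none passed the test. Their means ran from 0.08 for Lce1m to 0.55 for Lce1a2. In pair 1 the Lce1 gene with the highest ratio was Lce1a2, at 0.64 over its 2 probes, and the lowest was Lce1m at 0.11. In pair 2 the highest was again Lce1a2, at 0.46, and the lowest was Lce1g at -0.02. Lce1g, with 0.31 in pair 1, was the only Lce1 probe whose ratios had opposite signs. In 15 of the 16 probes the ratio was higher in pair 1, Lce1d being the exception with 0.24 in both.

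The array carries 9 unflagged spots of the Lce1b probe, which give the technical spread of one measurement. They ran from 0.21 to 0.33 in pair 1 (SD 0.039) and from 0.10 to 0.20 in pair 2 (SD 0.033). This spread covers printing and scanning of 1 labelled sample on each array, not the spread between mice.

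The Lce3 genes had larger ratios. In human skin the LCE3 genes are known for being induced after injury and in psoriasis. Lce3c, at chr3:92749506-92749565, read 0.91 in pair 1 and 0.57 in pair 2 (mean 0.74 ± 0.24, SD, n = 2; limma adjusted p = 0.0332). Lce3d, at chr3:92762371-92762430, read 0.87 and 0.50 (limma adjusted p = 0.0471). Lce3b, at chr3:92737872-92737931, read 0.84 and 0.50 (limma adjusted p = 0.0499). These 3 nearly equal values come from the probes of similar sequence printed above, where the Lce3d probe overlaps each of the others by 41 bases.

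Lce3e, whose probe at chr3:92772139-92772198 shares no such run with them, read 0.53 in pair 1 and 0.80 in pair 2 (mean 0.67 ± 0.19, SD, n = 2; limma adjusted p = 0.0459). It was the only Lce3 gene with the higher ratio in pair 2. Lce3a read 0.87 and 0.18 (limma adjusted p = 0.151), with the control channel not well above background on either array. Control values under the lowest signal called above background were raised to that signal. The SOX11 channel of Lce3a was then 1.32-fold higher as a mean over both arrays, which is not a minimum for each pair. Lce3f was the only Lce gene below 0 in both pairs, at -0.12 and -0.32 (limma adjusted p = 0.451), and was well above background on 1 array only.

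All 4 Lce3 calls lay close to the threshold, and other settings moved them both ways. The largest of their adjusted p-values was 0.0104 at an offset of 50, 0.00814 with no background subtraction, 0.0124 when the prior spread followed brightness and 0.000736 with median centring. With the median rather than the mean brightness of each spot the largest of their adjusted p-values was 0.078, and with the authors' own table of ratios it was 0.077. In both cases all 4 were lost while their mean ratios stayed between 0.64 and 0.72. They were also lost with the scanner software's processed signals, at up to 0.288, where no probe of the whole array passed. When flagged spots were kept, Lce3b alone was lost, at 0.0511.

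Set against each other, the Lce1 median over 13 genes was 0.36 in pair 1 and 0.15 in pair 2, and the Lce3 median over 6 genes was 0.85 and 0.50. The Lce1 median was lower than the Lce3 median by 0.49 in pair 1 and 0.35 in pair 2 (Lce1 minus Lce3 -0.42 ± 0.10, SD, n = 2). The ranges overlapped, since Lce3e and Lce3f in pair 1, and Lce3a and Lce3f in pair 2, lay below the highest Lce1 gene. With Lce3b, Lce3c and Lce3d counted as 1 gene, the difference was -0.34 and -0.20. With median centring in place of loess it was -0.09 and -0.20. The groups did not overlap in log2 brightness (12.9 to 17.2 for Lce1 probes, 5.67 to 11.6 for Lce3 probes).

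**Figure D2:**
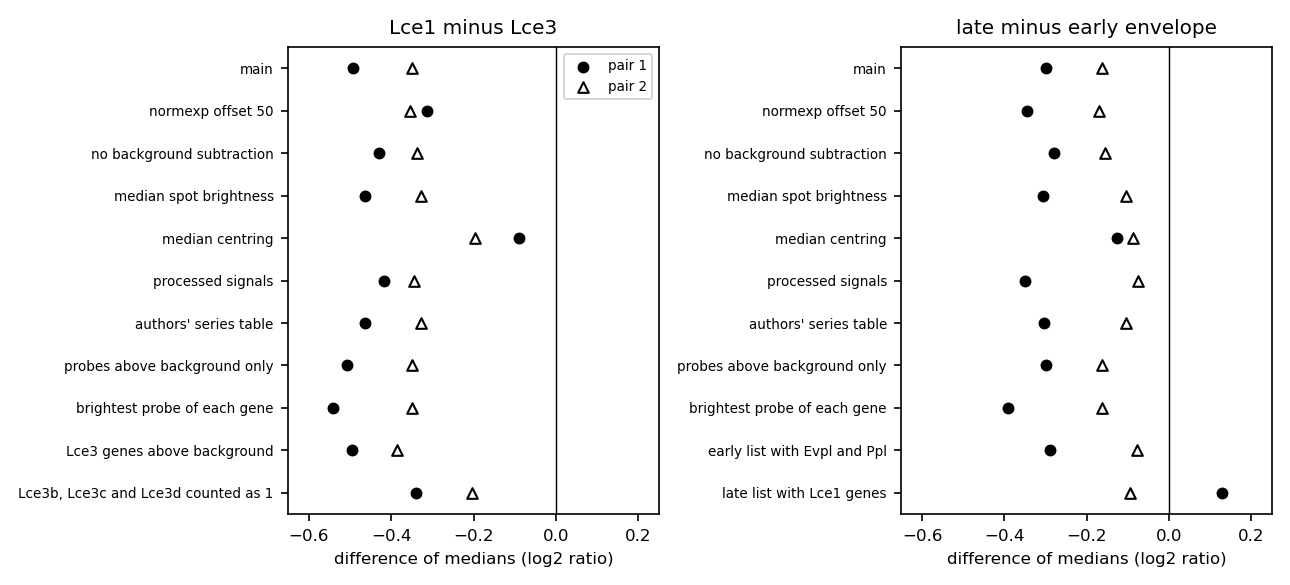
Difference of group medians in log2 ratio (horizontal axis) under each way of processing the arrays (vertical axis), for Lce1 minus Lce3 genes on the left and late minus early envelope genes on the right, with filled circles for pair 1 and open triangles for pair 2. Lce1 minus Lce3 stays below 0 throughout, while late minus early reaches 0.13 in pair 1 when the Lce1 genes join the late list.

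Rptn had the highest mean ratio and the lowest adjusted p of the members. It encodes repetin, a fused S100 protein of the filaggrin type that is found in the envelope of scattered cells of normal epidermis. The probe at chr3:93202664-93202723 read 1.25 in pair 1 and 1.18 in pair 2 (mean 1.22 ± 0.049, SD, n = 2; limma adjusted p = 0.00232), a 2.32-fold rise. It passed under every way of processing the arrays that was run apart from the scanner software's own processed signals, where its ratio was 1.38 and its adjusted p 0.244.

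Crct1, a small cysteine-rich gene beside the Lce genes, read 0.66 and 0.46 on one probe (limma adjusted p = 0.0740) and 0.76 and 0.30 on the other (0.110). Crnn encodes cornulin, another fused S100 protein, and its pairs were opposed, at 1.63 in pair 1 and -0.39 in pair 2 (mean 0.62 ± 1.4, SD, n = 2; limma adjusted p = 0.368). Its normalized log2 brightness was 8.82 in the control epidermis of pair 1 and 11.6 in that of pair 2, against 10.4 and 11.2 in the SOX11-induced epidermis. Control epidermis therefore held both the lowest and the highest Crnn level. Across the 40 probes the ratios of the pairs correlated at Pearson's r = 0.43, and at 0.71 without Crnn, a description over probes that share arrays and, for the Lce genes, sequence.

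**Figure D3:**
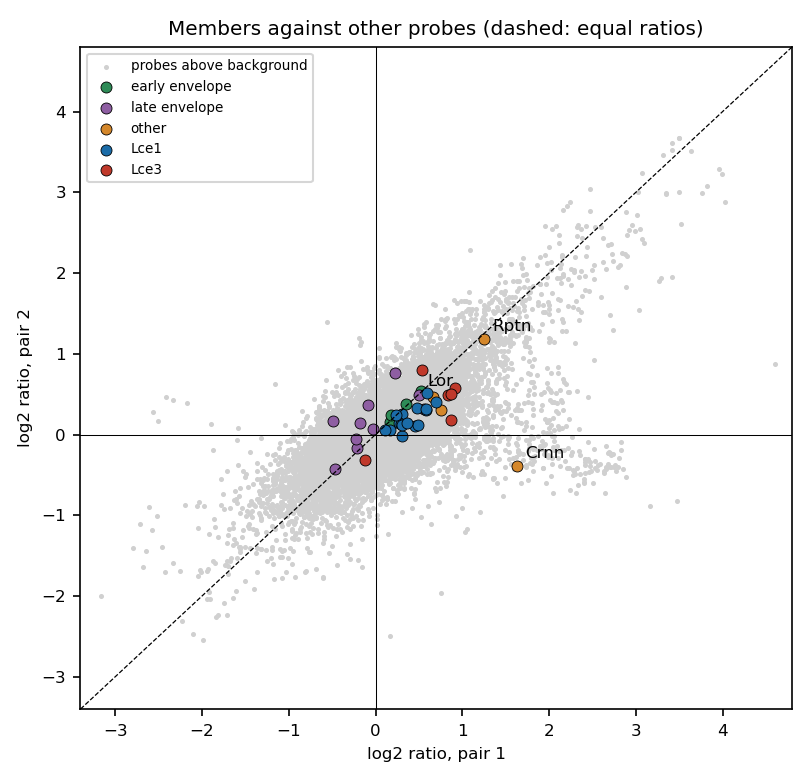
Log2 ratio in pair 1 (horizontal axis) against pair 2 (vertical axis) for the 21782 probes above background (grey) and the 40 member probes (coloured by group), with a dashed line where both ratios are equal. Most members lie to the upper right near the line, and Crnn lies among a cloud of grey probes with high ratios in pair 1 and ratios below 0 in pair 2.

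Crnn moved with markers of the hair follicle. A list of 15 inner root sheath and hair genes, all above background, had a median of 1.62 in pair 1 and -0.38 in pair 2, and 13 of the 15 had opposite signs in the pairs. The log2 of the brightness summed over the list was 16.7 in pair 1 and 19.1 in pair 2 in control epidermis. In SOX11-induced epidermis it was 18.5 and 18.8. The only gene of the list past the test was Gata3, at -0.78 and -0.75 (limma adjusted p = 0.0232). Tgm3, which the hair follicle also expresses, did not follow this pattern. The part of follicle content in the Crnn values, and in the higher Lce ratios of pair 1, was not tested.

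Other cell types were read by their markers. The 7 basal keratinocyte markers, all above background, had medians of -0.25 and -0.50, and Col17a1 (-1.32 and -0.88, limma adjusted p = 0.00669) and Krt15 (-1.08 and -0.98, 0.00573) fell. Each gene was read by its brightest probe, and 1 other probe of these lists passed, that of Itga6 with a mean of 3.38 (limma adjusted p = 6.21e-05), whereas the brightest Itga6 probe read -0.08 and 0.06. The 6 spinous markers, also all above background, had medians of 0.25 and 0.36 with none past the test. Krt1, Krt10, Krtdap and Sbsn were higher in both pairs, and Dsg1a and Dsc1 were lower in both. The medians were -0.09 and -0.19 for 6 sebaceous genes and 0.59 and 0.00184 for 5 melanocyte genes, all above background. They were -0.33 and -0.01 for 5 immune genes, 4 of them above background. For 3 endothelial genes, 2 of them above background, they were 0.12 and -0.07. No gene of these lists passed the test. The 6 dermal fibroblast genes had medians of -0.10 and 0.50 with 4 of them above background, and Dcn fell (-0.97 and -0.62, limma adjusted p = 0.0260). The 3 muscle genes had medians of 0.08 and 0.04 with 1 of them above background. The part of these cell types in the member values was not tested.

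Lists of genes that act with the members were also read by the brightest probe of each gene. Among all probes above background, 6.78% rose and 3.21% fell. The 14 genes of filaggrin processing include enzymes that cleave the precursor or citrullinate and degrade filaggrin. All 14 were above background, with median log2 ratios of 0.45 (pair 1) and 0.13 (pair 2). None passed the test. Among them Padi3, which citrullinates filaggrin and hair proteins, read 1.81 and -0.28 and so resembled Crnn. Asprv1, the protease that trims profilaggrin, read 0.65 and 0.45 (limma adjusted p = 0.0789).

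The 19 partners in the envelope, among them small proline-rich proteins, keratins and desmosomal proteins, had medians of 0.51 and 0.16, and 3 of them rose. S100a10 read 1.17 and 1.01 (limma adjusted p = 0.00458). Sprr2d read 0.82 and 0.93 (limma adjusted p = 0.0133). Sprr1b read 2.13 and 0.55 (limma adjusted p = 0.0383). None of the 19 fell.

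Of the 17 measured transcriptional regulators of the late program, 1 rose and 2 fell, with medians of -0.07 and -0.24. Nfe2l2, which encodes the stress regulator NRF2, rose (0.81 and 0.70, limma adjusted p = 0.0245). Gata3 fell, as given above. Pou2f3, a POU factor of suprabasal keratinocytes, also fell (-0.95 and -0.72, limma adjusted p = 0.0177). Klf4, a factor required for the skin barrier, read -0.01 and 0.30 (0.653), and Grhl3, another, read 0.39 and 0.70 (0.0896).

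**Figure D4:**
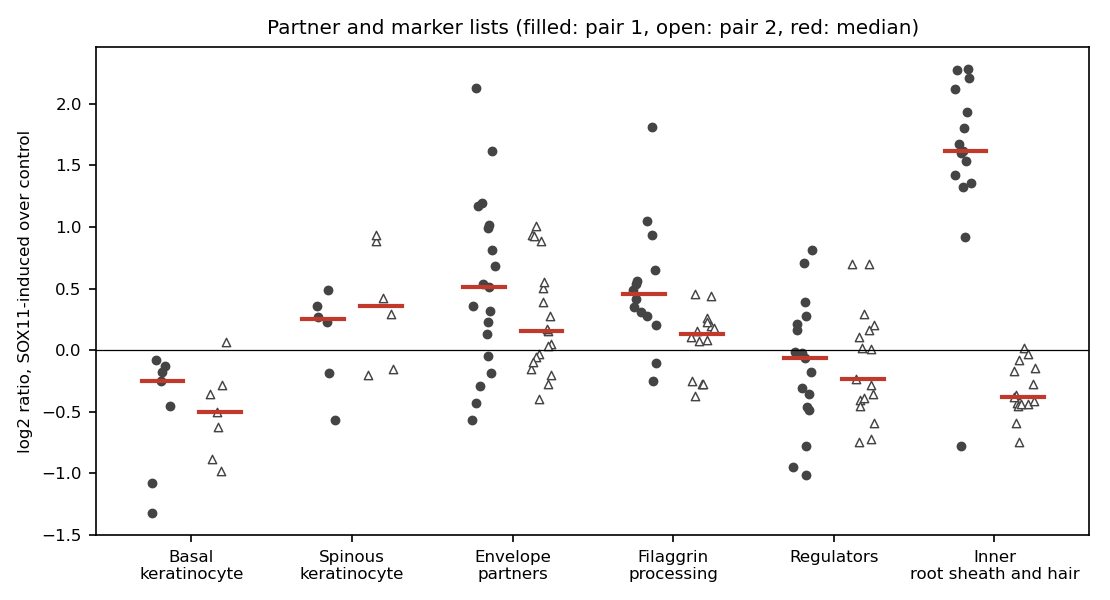
Log2 ratio of each gene (vertical axis) in 6 lists of partners and markers (horizontal axis), with filled circles for pair 1, open triangles for pair 2 and a red line at each median. The inner root sheath and hair list sits at a median of 1.62 in pair 1 and -0.38 in pair 2, the only list whose pairs part so far.

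The members are among the brightest probes of the array, so the fit of ratio to brightness matters to them. The median member had a log2 brightness of 13.9, which was at percentile 98.6 of all tested probes, and Lce1 probes (12.9 to 17.2) were brighter than Lce3 probes (5.67 to 11.6). At a log2 brightness of 14 or more there were 20 member probes and 741 others. The member probes there had medians of 0.30 and 0.24, and the others 0.02 and -0.000552. No member probe was saturated on either array.

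**Figure D5:**
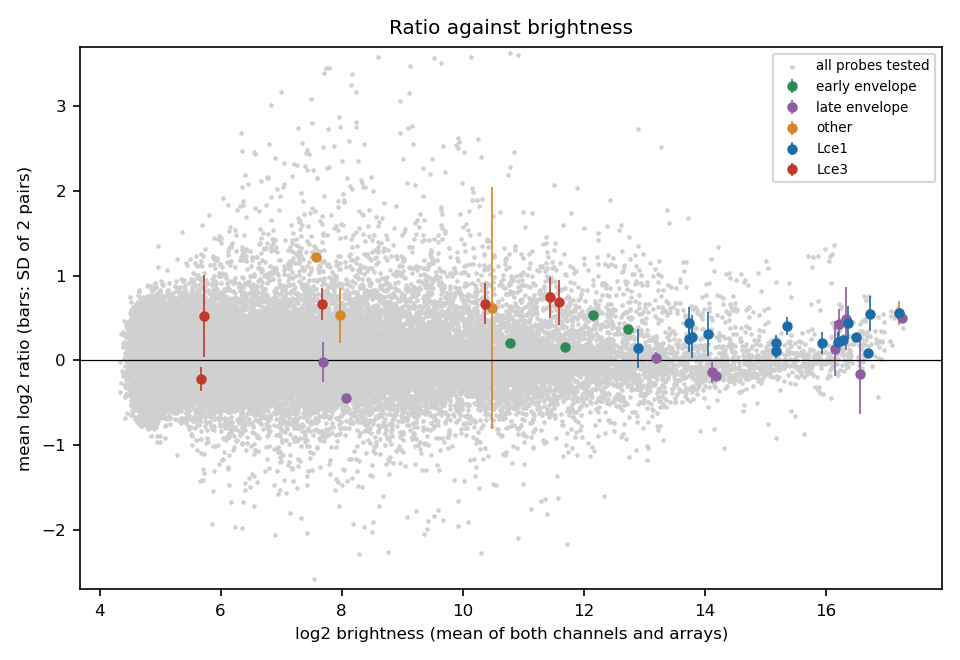
Mean log2 ratio over both pairs (vertical axis, bars show the SD of 2 pairs) against mean log2 brightness over channels and arrays (horizontal axis) for all 55676 tested probes (grey) and the members (coloured). Lce1 and most late envelope probes sit at the bright end, where the grey cloud is narrow around 0, and Lce3 probes sit in the dimmer and wider part.

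The spread between arrays also depends on brightness, and the calls follow how that is modelled. When the prior variance was allowed to follow brightness, 17 member probes passed as higher, against 5.33% of all probes, and none as lower, against 3.08%. These 17 were the 5 named above, 6 Lce1 probes, Lor, Cdsn, both Ivl probes, the third Flg probe and the first Crct1 probe. The mean ratios were the same in both fits.

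Start regions of the genes were read from RefSeq (GRCm38.p6), which held 32 start sites for 30 of the 32 genes. In the 250 bases before each start, 3 sets of letters were searched. They included AACAAT on either strand (a core that SOX factors bind) and TATAAA on the strand of the gene (the TATA box). The third was TGANTCA on either strand, a loose form of the AP-1 site (TGACTCA or TGAGTCA) with any base in the middle. AACAAT was present in 3 of the 32 regions (9.38%), those of Ivl, Lor and Lce3b, against 9.42% of 32851 regions of the same length. TGANTCA was present in 6 (18.8%, against 6.75%), those of Crnn, Flg, Flg2, Ivl, Lor and Rptn, and in no Lce region. The match was TGACTCA in Ivl and TGAGTCA in Lor, but TGATTCA in Rptn and TGAATCA in Crnn, Flg and Flg2. TATAAA was present in 9 (28.1%, against 7.59%), and 8 of these began 31 to 27 bases before the start. A match is a description of these letters only.

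The regions of Rptn, Ivl and Lor are shown because Rptn had the lowest adjusted p and Ivl and Lor stand for the early and late envelope, and because all 3 hold TGANTCA and TATAAA. Capitals mark the matches, and in Ivl the AACAAT match shares 1 base with the TATAAA match that follows it. The Rptn region is chr3:93393449-93393698 on the plus strand, the Ivl region is chr3:92573736-92573985 on the minus strand and the Lor region is chr3:92083143-92083392 on the minus strand (GRCm38.p6).
Rptn: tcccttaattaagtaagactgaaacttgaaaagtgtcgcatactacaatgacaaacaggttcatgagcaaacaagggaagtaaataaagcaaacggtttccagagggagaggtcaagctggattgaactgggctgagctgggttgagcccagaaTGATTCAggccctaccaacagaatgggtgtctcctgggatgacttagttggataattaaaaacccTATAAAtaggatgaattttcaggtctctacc
Ivl: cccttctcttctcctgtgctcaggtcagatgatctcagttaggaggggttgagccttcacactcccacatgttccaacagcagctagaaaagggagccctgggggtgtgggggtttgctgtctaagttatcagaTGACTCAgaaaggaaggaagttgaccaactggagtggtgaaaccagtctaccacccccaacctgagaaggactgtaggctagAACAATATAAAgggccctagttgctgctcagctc
Lor: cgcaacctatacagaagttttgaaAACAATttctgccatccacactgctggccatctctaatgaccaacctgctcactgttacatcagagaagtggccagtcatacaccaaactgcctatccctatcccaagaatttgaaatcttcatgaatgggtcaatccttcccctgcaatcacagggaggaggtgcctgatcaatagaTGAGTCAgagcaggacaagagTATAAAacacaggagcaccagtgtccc
TGANTCA begins 96 bases before the start in Rptn, 116 in Ivl and 48 in Lor. AACAAT begins 34 bases before the start in Ivl and 226 in Lor, and is not among the letters of this Rptn window.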

How the data were processed

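Two-colour Agilent mouse arrays measured epidermal RNA of 2 littermate pairs. The deposited scanner files hold mean and median spot intensity for each dye, from Agilent Feature Extraction 10.7.3.1 per the file headers. The authors' deposited series table holds log2 ratios. Their methods describe normexp background correction with an offset of 16, loess normalization within each array, a colour swap and a dye adjustment by ComBat. The labels give 1 dye orientation, so no adjustment was made here. The direction of the series table was checked against the scanner values (r = 0.961 and 0.953 over 55676 probes). The scanner software's own ratio and p-value columns were not used.

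Spot intensities were corrected and normalized as the methods state, with control spots at weight 0, in limma 3.58.1 (R 4.3.3). Outlier-flagged spots (194 and 186) were left out, and spots of 1 probe were averaged. Each log2 ratio is SOX11-induced over control within 1 pair. An intercept was fitted in limma with eBayes (prior 8.34 degrees of freedom, prior SD 0.223) and Benjamini-Hochberg adjustment, with a threshold of 0.05. Normalized log2 brightness is given after loess and Aquantile. A gene of a marker or partner list was read by its brightest probe. The code was tested on simulated data. Gene names are those of the array, and 36 member probes matched a RefSeq symbol by accession, all the same as the array's name. All genes of the fixed part of the rule, members past the threshold and the extreme Lce genes are given with their values, and of the partner and marker lists those past the threshold. A few others in the text (Lce1b, Lce1d, Lce1j, Padi3, Asprv1, Klf4, Grhl3 and the spinous markers) were chosen after their values were seen. The members, lists and tests were chosen with earlier results of these data known. Alternatives covered the background correction, spot summary, normalization, flags, filter, prior variance, probe choice and list membership.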

Additional observations from a re-analysis of the deposited data

How the results depend on the processing

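The count of member probes that passed as higher, 5 in the main analysis, was 16 with an offset of 50 (5.12% of all probes) and 16 with no background subtraction (5.75%), with 1 lower probe (Tgm3) in each (2.79% and 3.27% of all). It was 1 with median spot brightness (2.25%) and 1 with the authors' table (2.31%, Rptn in both). It was 37 with median centring in place of loess (21.8%) and 17 with a brightness-dependent prior variance. When only probes above background were tested, it was 7 (7.97%). With the scanner software's processed signals it was 0, and no probe of the array passed. There, 13 members were past an unadjusted p under 0.05 in limma, 12 of them higher, against 17.5% of all probes in either direction. The count was also 0 when a log2 ratio past 1.5 was required as well. Median centring gave probes above background a median of 0.47 and 0.55, and the 741 other bright probes 0.77 and 0.85, where the 20 bright members had 1.08 and 1.15. Under it the median over member genes was 1.056, Lce1 minus Lce3 was -0.14 and late minus early was -0.11, and Flg2 (0.57), Hrnr (0.61) and the first Flg probe (0.69) turned from lower to higher, as did the first and second Tgm3 probes (0.06 and 0.46) without passing. Lce1 minus Lce3 was -0.27 with Lce3b, Lce3c and Lce3d counted as 1 gene, an alternative added after the data were seen, and late minus early was 0.0169 with the Lce1 genes added. Across single pairs, Lce1 minus Lce3 ranged from -0.49 to -0.35, late minus early from -0.30 to -0.16 and the median over member genes from 0.23 to 0.42. Under the other alternatives these 3 values kept their direction and moved by less than 1 SD. The cause of these changes was not tested beyond what each alternative changes. The test was already paired, because each ratio is the difference within a littermate pair and the fit had 1 group of ratios. The number of arrays, 2, limits the precision, and a pair left alone gives a value with no test. Lce3a and Lce3f, near background, have the least certain ratios among the Lce genes.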
